A study of Felis catus with 12 samples.

Results

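Respiratory complexes II to V were described from the nuclear genes of their subunits in left ventricular free wall tissue of 12 cats. The members were the genes whose names mark a subunit of succinate dehydrogenase (SDHA to SDHD), of the cytochrome bc1 complex (UQCR genes and CYC1), of cytochrome c oxidase (COX4 to COX8) or of ATP synthase (ATP5 genes). This rule found 36 of the 30785 genes listed. Of these, 23 were found by name and 13 by gene ID, because many rows carry a gene ID in place of a symbol. The members comprised 4 genes of complex II, 5 of complex III, 8 of complex IV and 19 of complex V. Cytochrome c (CYCS) and several subunits of complexes III and IV, among them UQCRFS1, UQCRB, UQCRH, COX4I1, COX5A, COX6C, COX7B and COX7C, were not analysed here.

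The tissue was collected after death from client-owned domestic cats. The cohort held cats with congestive heart failure or arterial thromboembolism and cats with no documented cardiac cause of death. The labels give the flow cell, the barcode and the number of the cat for each library, and no outcome, age or genotype. The study lists outcome and age by cat number, but groups were taken from the labels alone, so only flow cells were compared here and outcome and age were not analysed. Cats 11, 23, 30 and 31 were sequenced on flow cell A (PAK20671), cats 10, 15, 35 and 36 on flow cell B (PAM73681), and cats 37, 38, 29 and 22 on flow cell C (PAM73696). With 1 library per cat and different cats on each flow cell, the flow cell and the cats on it cannot be told apart. RNA molecules were read directly, without conversion to cDNA, and between 789257 and 2263110 reads of a library fell on genes. Values below are reads divided by 1 size factor per library, which corrects for depth, and are called normalised values.

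In the inner mitochondrial membrane, complex II passes electrons from succinate to ubiquinone, complex III passes them from ubiquinol to cytochrome c, and complex IV passes them on to oxygen. Complexes III and IV pump protons, and complex V (ATP synthase) lets the protons flow back through a rotor to make ATP, the fuel of contraction. Heart muscle depends on this pathway more than most tissues and carries muscle-specific forms of some complex IV subunits. Complex I, which feeds electrons from NADH, served as a comparison.

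The labelled tissue was checked by its markers. All 13 cardiomyocyte markers passed the filter on low reads and together made up 13.9% to 26.1% of library reads, with myosin light chain MYL2, typical of the ventricle, at 57300 reads or more in every library. The markers of other cell types were far scarcer, with the fibroblast list at 0.0223% to 0.319% of reads and the endothelial list at 0.0262% to 0.0954%. The immune list took 0.00369% to 0.0459%, and the adipocyte list took 0.00499% to 0.0115%. Of the erythroid list, HBA1 had no read in any library and ALAS2 had at most 24. The 13 subunits that the mitochondrial genome encodes were listed at 0 in every library, so nothing can be said of that part of complexes III, IV and V.

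Together, the members accounted for 2.85% to 5.37% of all reads in a library (median 4.32%). The median share over the 12 libraries was 0.375% for complex II, 0.559% for complex III, 0.444% for complex IV and 2.89% for complex V. These shares and the ratios below count reads over unequal numbers of members, without the subunits of complexes III and IV that were not analysed. They are not amounts of a complex. Within libraries, reads of complex V outnumbered those of complex II by 6.69 to 8.32 times, those of complex III by 4.29 to 5.50 times and those of complex IV by 5.28 to 7.76 times. For complex III over complex II, the ratio lay between 1.28 and 1.77.

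**Figure D1:**
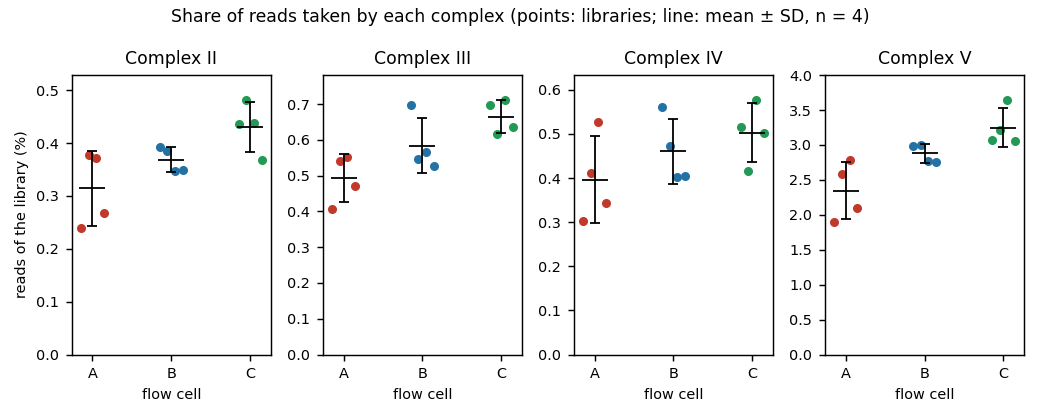
Share of the reads of each library (%, vertical axis from 0) taken by the members of each complex on flow cells A, B and C, with points for libraries and lines for the mean ± SD (n = 4 per flow cell). The shares on flow cell A reach down to 0.239% for complex II, 0.407% for complex III, 0.303% for complex IV and 1.90% for complex V, the lowest of the 12 libraries in each.

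The flow cells were then compared by these shares. For complex V the share was 1.90% to 2.78% on flow cell A, 2.75% to 3.01% on flow cell B and 3.05% to 3.64% on flow cell C. The highest library of flow cell A (cat 30) overlapped the lower end of flow cell B and lay below all of flow cell C. For complex I the share was 1.28% to 1.96% on flow cell A and 2.17% to 2.99% on the others, without overlap. For complex IV, 0.303% to 0.527% on flow cell A overlapped with 0.403% to 0.577% on the others.

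The main comparison asked which subunit genes differed between flow cell A and the mean of flow cells B and C. Of the 8259 genes tested, 482 differed, 324 lower and 158 higher on flow cell A (limma's moderated test on log2(normalised value + 1), Benjamini-Hochberg adjusted p under 0.05 over all genes tested). Of the 36 members, 34 passed the filter of at least 10 reads in at least 4 libraries. Among these, 12 were lower and 0 were higher on flow cell A, where 3.92% of all genes tested were called lower. By complex, 1 of 4 tested members of complex II, 2 of 5 of complex III, 0 of 7 of complex IV and 9 of 18 of complex V were called. The difference was negative for 33 of the 34 tested members, with the exception of COX7A2L. The medians of the log2 differences were -0.53 for complex II, -0.43 for complex III, -0.22 for complex IV and -0.71 for complex V, beside 0.02 for all genes tested. With each library left out in turn, the medians ran from -0.60 to -0.43 for complex II, -0.55 to -0.27 for complex III, -0.38 to -0.10 for complex IV and -0.86 to -0.64 for complex V. The median of complex III was nearest to 0 without cat 11, where that of complex IV was further from 0 (-0.34), and the median of complex IV moved by over 1.5 times without cat 11, 30, 31, 35, 37 or 38. With reads scaled to depth alone (CPM) the medians were -0.33, -0.22, -0.04 and -0.51 in the same order. The median of complex IV was the difference of COX4I2 itself, a gene of 3 to 33 reads. With a filter of at least 50 reads in at least 4 libraries, the median of complex IV was -0.34. Whether the complexes differed from each other in these counts and medians was not tested. In complex I, 17 of 38 tested subunits were lower and 0 were higher, with a median of -0.73.

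The counts depended on single libraries. Without cat 11, 3 members and 89 genes were called, and without cat 31, 5 members and 178 genes. Leaving out cat 10, 15, 36 or 29 left 7, 6, 6 or 7 members called. Cats 22 and 29 are absent from the study's list of sequenced cats, and without both 6 members and 271 genes were called. ATP5F1D, ATP5ME and ATP5PD were called under each of the 22 alternative settings tried. With reads scaled to the depth of each library alone (CPM), the split of all calls turned to 153 lower and 348 higher, the median of all genes moved to 0.22, and 5 members were called, all lower. On the recovered reads, edgeR called 10 of the 12 members and DESeq2 all 12, with 17 members called by DESeq2 in all.

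**Figure D2:**
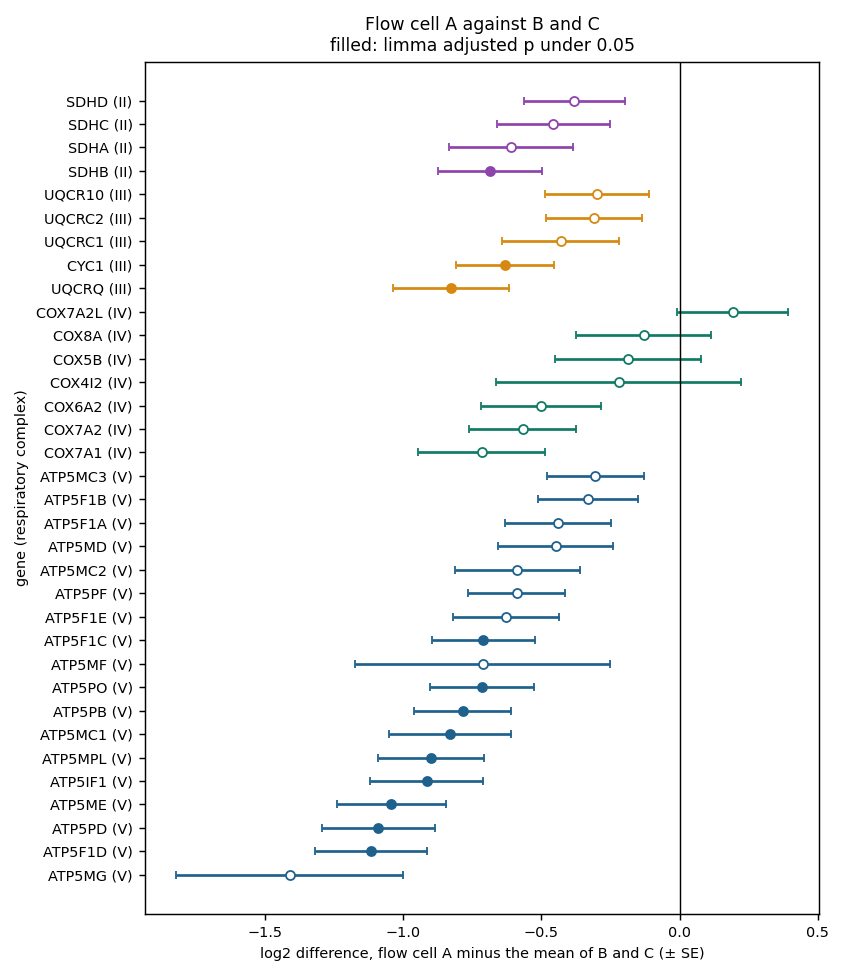
Log2 difference of each tested member between flow cell A and the mean of flow cells B and C (horizontal axis, with bars for the standard error), sorted within complexes II to V, with filled points for an adjusted p under 0.05. Of the 34 points, 33 lie left of 0, and the 12 filled ones are in complexes II, III and V.

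Markers of cell types also differed in this contrast, in which 324 (3.92%) of the 8259 genes tested were called lower and 158 higher. Of the 13 cardiomyocyte markers, 8 were lower on flow cell A and 0 were higher, with a median difference of -0.96. The 8 were MYH7, MYL3, TNNT2, TNNI3, TNNC1, MYBPC3, PLN and MB, with log2 differences of -1.82 to -0.84. ACTC1, MYL2, TTN, RYR2 and CKM were at 0.59, -0.16, 0.05, -0.51 and -0.91 and did not pass the test. The summed share of the list was 13.9% to 17.0% on flow cell A and 14.8% to 26.1% on the others. Of the 8 fibroblast markers, 5 were higher (COL1A1, COL1A2, COL3A1, POSTN and FBN1), with a median difference of 1.49. Their list took 0.100% to 0.319% of reads on flow cell A, 0.0223% to 0.0625% on flow cell B and 0.0780% to 0.157% on flow cell C. Between flow cells B and C, all 8 fibroblast markers were lower on flow cell B, with a median difference of -1.44. Of these, 5 had an unadjusted limma p under 0.05 and 0 were called. Among 5 tested markers of smooth muscle and pericytes, CNN1 and TAGLN were higher on flow cell A, with a summed share of 0.0433% to 0.107% against 0.00916% to 0.0298% on the others. None of the 7 endothelial, 4 tested immune or 1 tested adipocyte markers passed the limma test, of which 0 endothelial and 1 immune marker had an unadjusted p under 0.05. Fewer cardiomyocytes, less RNA per cardiomyocyte and an effect of the flow cell itself cannot be told apart in bulk tissue with this design. The part of cell composition in the differences of the members was not tested.

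Cat 11 stood lowest and cat 29 highest across the members. In 25 of the 34 tested members, the lowest value of all 12 libraries was in cat 11, the most deeply sequenced library with 2263110 reads. Cat 29 had the highest value in 23 members, from 1228079 reads. The other 3 libraries of flow cell A held the lowest value of 5 members, and cat 31 held the highest of 1, COX7A2L.

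**Figure D3:**
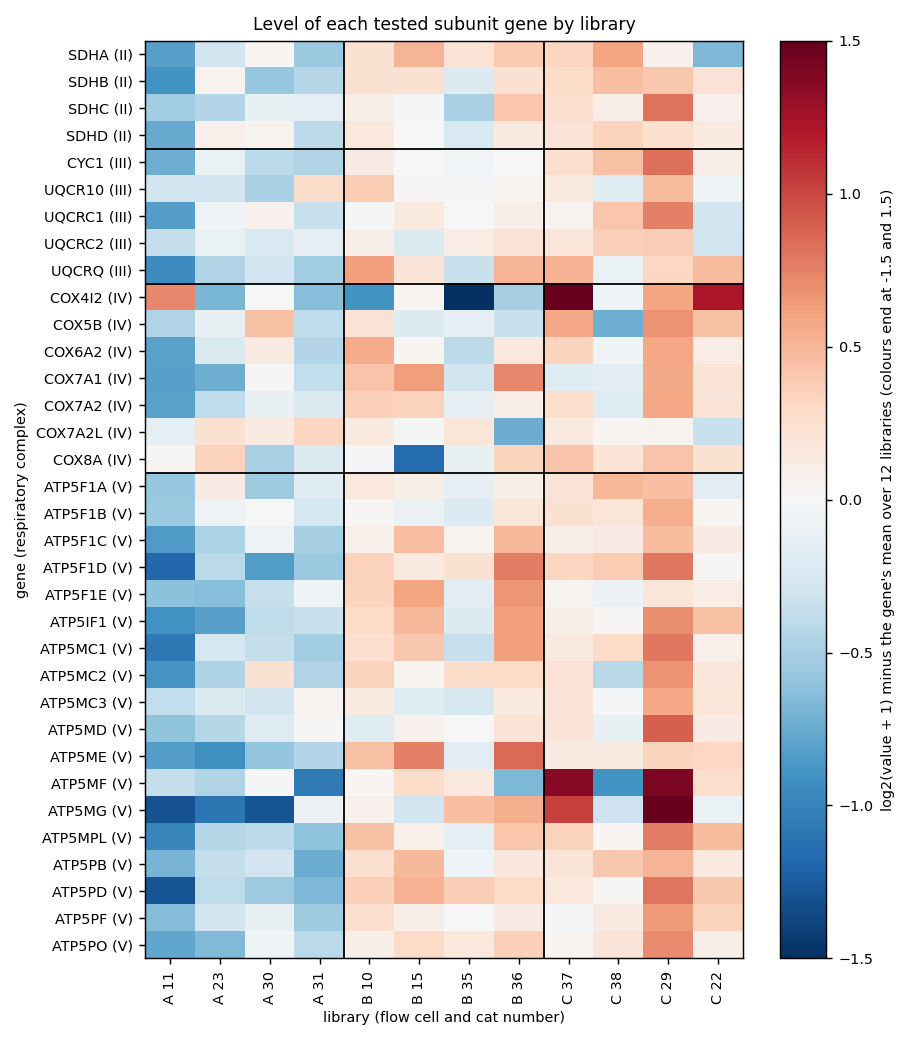
Level of the 34 tested members (rows, grouped by complex) in the 12 libraries (columns, by flow cell and cat number), as log2(normalised value + 1) minus the gene's own mean, with blue below and red above the mean. The columns of flow cell A are mostly blue, with cat 11 darkest, and the column of cat 29 is mostly red. The colours are capped at both ends of the scale.

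Complex II consists of the flavoprotein SDHA, which oxidises succinate, the iron-sulphur protein SDHB and the membrane anchors SDHC and SDHD. The normalised values of SDHB were 905, 1750.2, 1136 and 1249 for cats 11, 23, 30 and 31 on flow cell A and 1456 to 2305 (median 1972) on the others. Of the 8 other libraries, 1 (cat 35) lay below the highest of flow cell A. The mean was 1260.1 ± 357 (SD, n = 4) against 1984 ± 252 (SD, n = 8), a log2 difference of -0.68 ± 0.19 (SE, limma adjusted p = 0.0425). SDHA was at 609 to 1090.1 on flow cell A and 671 to 1609 (median 1295) on the others, a log2 difference of -0.61 ± 0.23 that missed the threshold (limma adjusted p = 0.119). For SDHC the difference was -0.46 ± 0.20 (limma adjusted p = 0.197), and for SDHD, the smallest of the complex, it was -0.38 ± 0.18 (limma adjusted p = 0.232).

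In complex III, CYC1 carries the haem that hands electrons to cytochrome c, UQCRC1 and UQCRC2 are the core proteins, and UQCRQ and UQCR10 are small supernumerary subunits. For UQCRQ the normalised values on flow cell A were 1344, 1893, 2127 and 1799 and those on the others 2061 to 3970.2 (median 3416). Its groups overlapped by 1 library, cat 35, and the log2 difference was -0.83 ± 0.21 (SE, limma adjusted p = 0.032), the largest of the complex. CYC1 had 472, 731, 588 and 571 on flow cell A and 758 to 1388 (median 847) on the others, without overlap. The log2 difference of CYC1 was -0.63 ± 0.18 (limma adjusted p = 0.0467). Both core proteins fell short of the threshold, UQCRC1 at -0.43 ± 0.21 and UQCRC2 at -0.31 ± 0.17. UQCR10 had the smallest difference of the complex at -0.30 ± 0.19 (limma adjusted p = 0.364), and 6 of the 8 other libraries lay below its highest value on flow cell A. The calls of SDHB and CYC1 were each lost under 14 of the 22 alternatives and that of UQCRQ under 10, always with the same sign.

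No member of complex IV was called by the main limma fit or by edgeR. In the main fit, 3 of the 7 tested had an unadjusted limma p under 0.05, and DESeq2 called 2. COX6A2 and COX7A1 are the heart and skeletal muscle forms of their subunits, and COX7A2 is the form used more widely. COX7A1 came nearest to the threshold, at 589.8, 622, 1049 and 801 on flow cell A and 851 to 1705 (median 1293) on the others, a log2 difference of -0.72 ± 0.23 (SE, limma adjusted p = 0.0772). It was called under 4 of the 22 alternatives. COX7A2 gave -0.57 ± 0.19 (limma adjusted p = 0.0934) and COX6A2 gave -0.50 ± 0.22 (limma adjusted p = 0.186). The ratio of COX7A1 to COX7A2 reads was 0.462 to 0.644 on flow cell A, 0.526 to 0.907 on flow cell B and 0.434 to 0.605 on flow cell C. On the log2 scale this ratio differed by -0.15 between flow cell A and the others (two-sided exact permutation test over 495 splits, p = 0.422, adjusted p = 0.422 over 3 pairs of paralogs), less than the SD of 0.31 among the other libraries.

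The remaining members of complex IV had small differences or few reads. COX5B, a zinc-binding subunit, was at 69.5, 88.7, 130.5 and 73.4 on flow cell A and 57.4 to 153 (median 99.1) on the others, and COX8A, a small membrane subunit, at 308, 387, 217 and 262 and 136 to 410.1 (median 354). Their log2 differences were -0.19 ± 0.27 and -0.13 ± 0.24 and turned positive, to 0.018 and 0.076, with CPM. COX7A2L, which takes part in joining complexes III and IV into supercomplexes, had 221, 286, 266 and 306 on flow cell A and 146 to 279 (median 254) on the others, a difference of 0.19 ± 0.20 (limma adjusted p = 0.612). All 8 of the other libraries lay below its highest value on flow cell A, in cat 31. COX4I2, the isoform known from lung and from low oxygen, had between 2.36 and 34.3 in any library, and COX7B2, an isoform known from testis, had no read in any library.

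**Figure D4:**
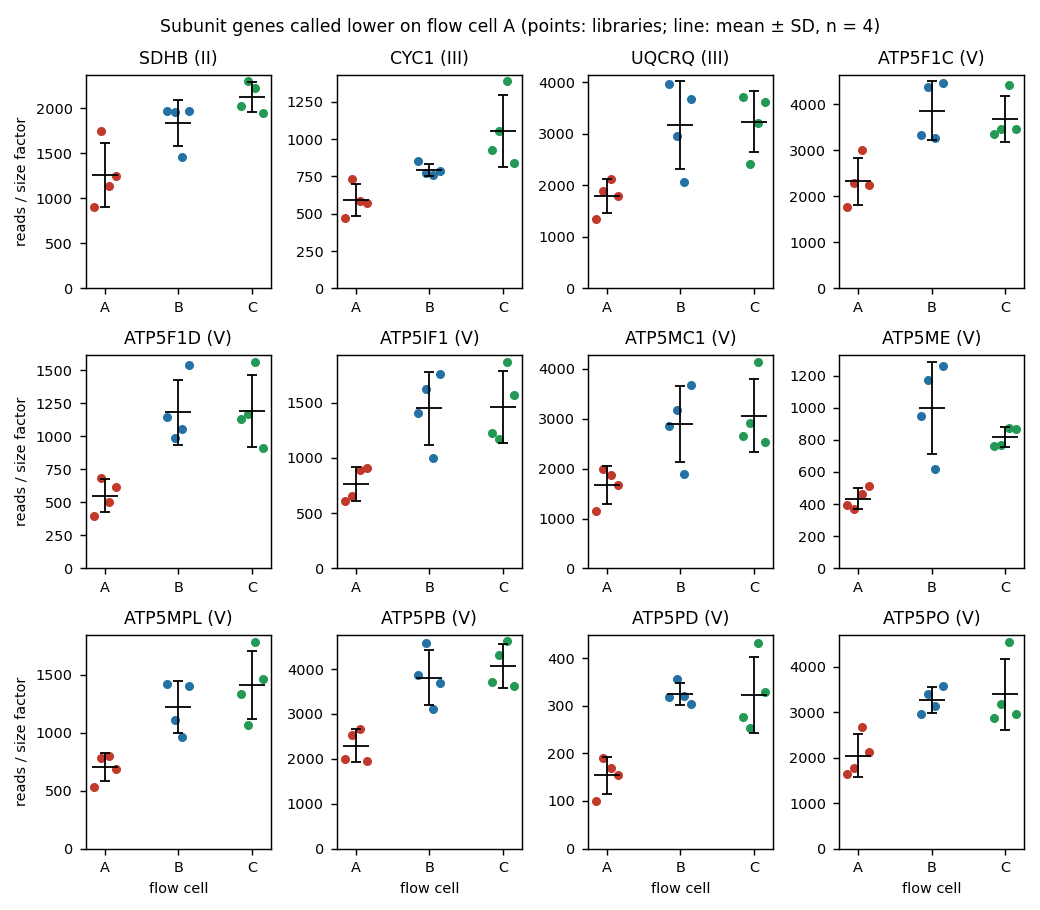
Normalised values (reads divided by the size factor, vertical axes from 0) of the 12 members called lower on flow cell A, with points for libraries and lines for the mean ± SD (n = 4 per flow cell). In 9 of the 12 panels every point of flow cell A lies below all 8 points of flow cells B and C.

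In complex V, all 18 tested members had lower mean log2 values on flow cell A and 9 passed the test. The head, where ATP is made, is built in this complex of ATP5F1A and ATP5F1B, with ATP5F1C, ATP5F1D and ATP5F1E as the central stalk that turns inside it. ATP5F1D had 398, 681, 502 and 614 on flow cell A and 910.0 to 1558 (median 1136) on the others, without overlap. Its mean was 549 ± 125 (SD, n = 4) against 1186 ± 239 (SD, n = 8), and the log2 difference was -1.12 ± 0.20 (SE, limma adjusted p = 0.00783), 53.9% lower. ATP5F1C, also without overlap, had 1762, 2289, 3009 and 2251 and 3279 to 4472 (median 3463), a difference of -0.71 ± 0.19 (limma adjusted p = 0.0357). The central stalk subunit ATP5F1E was at -0.63 ± 0.19 (limma adjusted p = 0.0658). The 2 large head subunits had smaller differences that missed the threshold, -0.44 ± 0.19 for ATP5F1A, at 2876 to 4622 on flow cell A and 3783 to 5999 (median 4644) on the others, and -0.33 ± 0.18 for ATP5F1B (limma adjusted p = 0.292).

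The peripheral stalk, which keeps the head from turning with the rotor, is made of ATP5PB, ATP5PD, ATP5PF and ATP5PO (the OSCP subunit). All 4 had every library of flow cell A below the other 8, and 3 of the 4 were called. Over all genes tested, 2.63% showed such a gap, and over the tested members 10 of 34 did. ATP5PD had 100.4, 191, 169 and 155 on flow cell A and 252 to 432 (median 319) on the others, a log2 difference of -1.09 ± 0.20 (SE, limma adjusted p = 0.00887). ATP5PB had 2007, 2541, 2666 and 1953 and 3115 to 4629.7 (median 3790.0), a difference of -0.78 ± 0.18 (limma adjusted p = 0.0177). For ATP5PO, 1631, 1764, 2671 and 2111 stood against 2858 to 4549 (median 3154), a difference of -0.71 ± 0.19 (limma adjusted p = 0.0363) whose call was lost under 11 of the 22 alternatives. ATP5PF did not overlap either, at 866 to 1256 against 1336 to 2118 (median 1486), but its difference of -0.59 ± 0.18 missed the threshold (limma adjusted p = 0.0599).

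Small membrane subunits hold the dimers of ATP synthase that bend the inner membrane. ATP5ME had 392.4, 367, 461 and 514 on flow cell A and 619 to 1256 (median 871) on the others, without overlap, and a log2 difference of -1.04 ± 0.20 (SE, limma adjusted p = 0.00893). ATP5MPL, listed under its newer symbol ATP5MJ in RefSeq, had 532, 783, 799.7 and 689 and 959 to 1781 (median 1365), also without overlap, and a difference of -0.90 ± 0.19 (limma adjusted p = 0.0142). ATP5MG had the largest difference of all members, -1.41 ± 0.41, yet missed the threshold (limma adjusted p = 0.0556). Its values were 21.7, 25.5, 21.9 and 51.8 on flow cell A and 44.1 to 290.4 (median 66.6) on the others, with cat 29 highest. ATP5MD (ATP5MK) was at -0.45 ± 0.21 (limma adjusted p = 0.212) and ATP5MF, with a highest normalised value of 22.2, at -0.71 ± 0.46 (limma adjusted p = 0.376).

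ATP5IF1 is the inhibitor that keeps ATP synthase from running backwards and consuming ATP when the proton gradient falls. Its values were 612, 657, 888 and 911 on flow cell A and 1003 to 1871 (median 1485) on the others. The groups did not overlap, and the log2 difference was -0.91 ± 0.20 (SE, limma adjusted p = 0.0176). Across the 22 alternatives, the call was lost under 1 for ATP5MPL, 2 for ATP5IF1, 4 for ATP5PB and 10 each for ATP5F1C and ATP5MC1. ATP5S, a coupling factor outside the structural core, had values of 1.35 to 8.87 and did not pass the filter.

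The c ring of the rotor is made of a single protein that ATP5MC1, ATP5MC2 and ATP5MC3 encode with different import signals. ATP5MC1 had 1141, 1992, 1876 and 1669 on flow cell A and 1883 to 4135 (median 2883) on the others, and only cat 35 among the other libraries lay below the highest of flow cell A. The log2 difference was -0.83 ± 0.22 (SE, limma adjusted p = 0.0371). ATP5MC3 gave -0.31 ± 0.17 (limma adjusted p = 0.316), the smallest of complex V, and ATP5MC2 -0.59 ± 0.23 (limma adjusted p = 0.132). Of the reads of the c-ring genes, ATP5MC1 took 33.8% to 44.1% on flow cell A, 41.6% to 54.2% on flow cell B and 42.8% to 50.3% on flow cell C. ATP5MC2 took 3.95% to 8.23% in all libraries. The log2 ratio of ATP5MC1 to ATP5MC3 was -0.51 ± 0.33 (SD, n = 4) on flow cell A and 0.01 ± 0.26 (SD, n = 8) on the others, a difference of -0.53 that did not pass after adjustment (two-sided exact permutation test, p = 0.0222, adjusted p = 0.0667 over 3 pairs, smallest possible p = 0.00202). For ATP5MC2 to ATP5MC3 the difference was -0.28 (exact permutation test, p = 0.2, adjusted p = 0.3). The results turned on single cats of flow cell A. Without cat 30, both ratios passed (exact permutation test, adjusted p = 0.0364 for each). The difference in the ratio of ATP5MC1 to ATP5MC3 was -0.41 without cat 11 (exact permutation test, adjusted p = 0.236) and -0.45 without cat 31 (exact permutation test, adjusted p = 0.218).

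The complexes were then set against each other within libraries. For each library, a score per complex was taken as the mean over its tested members of log2(normalised value + 1) minus the gene's own mean, and scores were subtracted. On flow cell A, complex V minus complex IV was -0.480 to -0.132, below 0 in each of the 4 libraries. The same difference was 0.0891 to 0.380 on flow cell B and -0.204 to 0.260 on flow cell C. Flow cell A was thus apart from B and overlapped with C through cat 37 (-0.204). Cat 22 of flow cell C, at -0.126, lay barely above the highest library of flow cell A (cat 31, -0.132). The score of complex IV weighs each tested member equally, including COX4I2, a gene of 3 to 33 reads. The normalised value of COX4I2 was highest in cat 37 (34.3), which raised the complex IV score there. Whether the overlap with flow cell C holds without COX4I2 was not tested. Complex V minus complex II was -0.307 to -0.0323 on flow cell A, 0.0245 to 0.179 on flow cell B and -0.337 to 0.372 on flow cell C. Complex III minus complex II stayed between -0.182 and 0.166 in all 12 libraries. These scores are descriptions over chosen members and were not tested.

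Between flow cells B and C, no gene of the 8259 tested differed by limma (0% called), with 651 genes at an unadjusted p under 0.05, 0 called by edgeR and 24 by DESeq2. No member was called, and 1 member, COX4I2, had an unadjusted p under 0.05. COX4I2 had 4.51, 9.53, 2.36 and 6.23 on flow cell B and 34.3, 8.82, 14.4 and 23 on flow cell C, a log2 difference of -1.63 ± 0.51 (SE, limma adjusted p = 0.441) at few reads. The medians of the differences were -0.21 for complex II, -0.11 for complex III, -0.15 for complex IV and -0.10 for complex V. With each library left out in turn they ran from -0.26 to -0.12, from -0.26 to -0.034, from -0.31 to -0.059 and from -0.15 to 0.025, and the median of complex V was above 0 without cat 29 (0.025) or without cats 22 and 29 (0.018).

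The spread of a member over the 12 libraries holds differences between cats and flow cells as well as counting error. Coefficients of variation were 18.9% to 29.8% in complex II, 17.7% to 32.8% in complex III, 17.6% to 79.2% in complex IV and 19.4% to 100.2% in complex V, with ATP5MG widest, and counting error alone would give 1.31% to 35.1%. Subunits of these complexes have near-identical processed copies in mammalian genomes. Whether read counting mixed such copies with the parent genes was not tested for any member, called small subunits such as ATP5ME included. Values of ATP5MF and ATP5MG are also uncertain for their few reads, 4 to 20 and 19 to 262 in a library.

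Other genes of the pathway were examined by lists. In the main comparison, 3.92% of all genes tested were called lower on flow cell A. Of 31 tested assembly factors of complexes II to V, 3 were lower on flow cell A and 0 were higher, with a median difference of -0.55. These were UQCC2 of complex III (-0.91 ± 0.25, SE, limma adjusted p = 0.0401), COX20 of complex IV (-0.95 ± 0.22, limma adjusted p = 0.0189) and FMC1 of complex V (-0.64 ± 0.18, limma adjusted p = 0.0499). Of 10 tested regulators of nuclear genes for mitochondria, 2 were lower and 0 higher, with 9 negative and a median difference of -0.31. PPARGC1A, a coactivator that raises mitochondrial gene expression, differed by -1.78 ± 0.43 (SE, limma adjusted p = 0.0269) from 11 to 171 reads, and ESRRA, a nuclear receptor it acts with, by -1.18 ± 0.26 (limma adjusted p = 0.0167). TFAM, which packages and transcribes mitochondrial DNA, was at -0.46 (limma adjusted p = 0.366). Regulators near 0 were TFB2M at -0.07, YY1 at -0.03 and ESRRG at -0.005, and GABPB1 was at 0.32, none of them called.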

How the data were processed

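Left ventricular RNA was isolated with a column kit, mRNA was selected, and libraries were prepared for direct RNA sequencing with 4 barcodes per flow cell. The authors called bases with Guppy, kept reads with a Phred score above 7, mapped them to felCat9 with minimap2 without a preset and counted them with featureCounts. The deposited signal values are reads divided by 1 size factor per library. The division is not given in the sources used here, but 100% of values were whole multiples of 1 read (tolerance 1e-06), and recomputed median-of-ratios factors (0.699 to 2.07) agreed to a relative 2.66e-15.

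Members with a gene ID for a name were matched to RefSeq symbols of assembly F.catus_Fca126_mat1.0 (435 of 14375 such rows matched), a different build, so no coordinates are printed. The 8259 genes reaching 10 reads in 4 or more libraries were tested with limma 3.58.1 (intensity trend, log2(value + 1), flow cell as the only term) in R 4.3.3. edgeR 4.0.16 and DESeq2 1.42.0 on the recovered reads, other scalings, filters and pseudocounts, a barcode block, each library left out and cats 22 and 29 left out (which the study does not list among the sequenced cats) were alternatives. Fits were tested on simulated data. Differences on the log2(value + 1) scale understate those of genes with few reads. The p-values of the fits cover the spread between cats within a flow cell and not the spread between flow cells. The permutation tests split all 12 libraries without regard to flow cell, and so treat libraries of different flow cells alike. The members and lists were chosen with earlier results of these data known. Named were subunits fixed by name, the largest and smallest differences of each complex, members not passing the filter, and, chosen after their values were seen, the other tested members.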

Additional observations from a re-analysis of the deposited data

Results flagged for a closer look

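Within a flow cell of 4 libraries, 6 of 126 groups of values held a library far from the other 3 (by Dixon's test at 95%), and chance flags about 1 in 20 groups. ATP5MG was 51.8 in cat 31 of flow cell A. On flow cell B, SDHB was 1456 in cat 35, UQCR10 was 2155 in cat 10, and the ratio of ATP5MC2 to ATP5MC3 reads was 0.164 in cat 35. On flow cell C, ATP5F1C was 4426 in cat 29 and the ratio of COX7A1 to COX7A2 reads was 0.434 in cat 37.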

How the results depend on the processing

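Between flow cell A and the others, 482 genes, 12 members and the medians of the complexes were recomputed under each alternative. DESeq2 called 826 genes (346 higher) and 2 members of complex IV, edgeR called 0 of complex II and 1 of complex III, and 52.1% of edgeR's calls were lower, against 67.2%. Without cats 22 and 29, 271 genes (173 lower, 98 higher) and 6 members were called, 0 in complex III and 5 in complex V. CPM without further scaling gave 153 genes lower, 348 higher, 5 members (all in complex V, 0 in II and III), a median of -0.22 for complex III, and reversed COX5B to 0.018 and COX8A to 0.076. With every gene that had a read, 196 genes were lower and 5 members were called, all in complex V. A filter of 50 reads called 1 member of complex IV and gave that complex a median of -0.34. Leaving out each library in turn gave 89 to 535 genes, 69 to 364 lower and 20 to 193 higher, 3 to 13 members, 0 to 1 in complex II, 0 to 2 in III, 0 to 1 in IV and 3 to 11 in V. COX8A ranged from -0.28 to 0.0037, above 0 without cat 30. The ratio of ATP5MC1 to ATP5MC3 ranged from -0.63 to -0.41 and that of ATP5MC2 to ATP5MC3 from -0.51 to -0.17, with adjusted p-values from exact permutation tests of 0.0364 to 0.236 and 0.0364 to 0.533, both passing only without cat 30 of flow cell A. Between flow cells B and C, 24 genes were called by DESeq2, 1 with CPM, with a pseudocount of 2 or without cats 22 and 29, and 0 to 2 with a library left out. The causes were not tested. With the barcode number as replicate block, 568 genes and 13 members were called. Libraries sharing a barcode number correlated at -0.0895 to 0.116 over 12 pairs, and 5 of 12 correlated best with their own number. Best matches can also arise without a pairing, so this check cannot decide whether the numbers pair the libraries. The labels give a different cat for each library, and the main fit used no pairs. Depth limits COX4I2, ATP5MF, ATP5MG and ATP5S.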
